A study of Mus musculus with 24 samples.

Results

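The dentoalveolar complex (DAC) is the tooth-bearing upper jaw bone with its molars, here harvested after the soft tissue had been cleaned away, and gingiva is the oral mucosa around the same teeth. The 4 DAC libraries and the 4 gingival libraries of sham-operated mice were compared; they were chosen by their titles and make up 8 of the 24 poly(A) RNA-seq libraries of the series. All 8 came from female wild-type C57BL/6J mice that were 11 weeks old at the start. The mice had sham surgery on day 0 and vehicle from day 4, had silk tied around the upper second molar of each side on day 7, and were killed on day 14. Such a ligature retains bacteria at the gum line and is used to model periodontitis; no library of an unligatured jaw was compared here. The other 16 libraries came from mice that were ovariectomized and given vehicle (OVX) or ovariectomized and given 1 µg of estradiol benzoate a day in corn oil (OVXE2), with the same ligature. They share the estimate of the spread, and their own tissue contrasts are given at the end. Whether a library is 1 mouse or a pool, and whether a DAC and a gingival library share a mouse, is not stated in the labels, which name biological replicates; the p-values measure the spread between these samples.

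Alveolar bone is laid down by osteoblasts, which bury some of their number as osteocytes, and is removed by osteoclasts, large cells that form from blood precursors under the cytokine RANKL. The periodontal ligament, a band of collagen fibres, ties the tooth root to the bone, odontoblasts line the dentin from within the pulp, and blood-forming marrow can fill spaces in the jaw. Gingiva is a keratinising stratified epithelium over connective tissue: cells leave the basal layer, change their keratins, and end as a cornified layer sealed by cross-linked proteins.

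Gene counts ran from 14771830 to 24923126 per DAC library and from 19992438 to 26001342 per gingival library, and DAC replicate 2 was the shallowest. Of fragments, 21 to 25.9% lay on no annotated feature in the DAC, against 30.2 to 32.2% in gingiva. Of 38321 listed genes 14209 passed the filter on low counts and were tested; levels are counts per 1000000 (CPM) after TMM scaling of all 24 libraries together. The biological coefficient of variation was 0.234 among the DAC libraries and 0.159 among the gingival libraries, and the median SD of log2 CPM was 0.19 and 0.17. The labelled tissues were borne out by their markers: 14 genes of bone matrix and osteoblasts held 13.9 to 15.2% of counts in the DAC and 0.467 to 0.872% in gingiva, and 18 genes of the cornified envelope held 0.0375 to 0.0709% in the DAC and 4.15 to 5.30% in gingiva.

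Most genes differed between the tissues. At an adjusted p under 0.05 (edgeR quasi-likelihood test), 5636 genes were higher in the DAC, 39.7% of those tested, and 5037 were lower, 35.4%, together 75.1%. Against a minimum of 2-fold (edgeR glmTreat, the same threshold), 3286 genes were higher in the DAC, 23.1%, and 1873 were lower, 13.2%, or 36.3% in all. "Passed" refers to this 2-fold test throughout, upward where the DAC was higher, and "higher" or "lower" of a gene without values means that it passed. For 36.6% of genes all 4 DAC values lay above all 4 gingival values, and for 34.3% below them. At least 10-fold were 1059 genes upward and 672 downward, and at least 100-fold 185 and 108. The median log2 difference of all genes was 0.07, so the gene lists are read against that value and against 23.1% and 13.2%. In bulk tissue fewer cells of a type and less RNA per cell cannot be told apart, which holds for every difference given here.

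**Figure D1:**
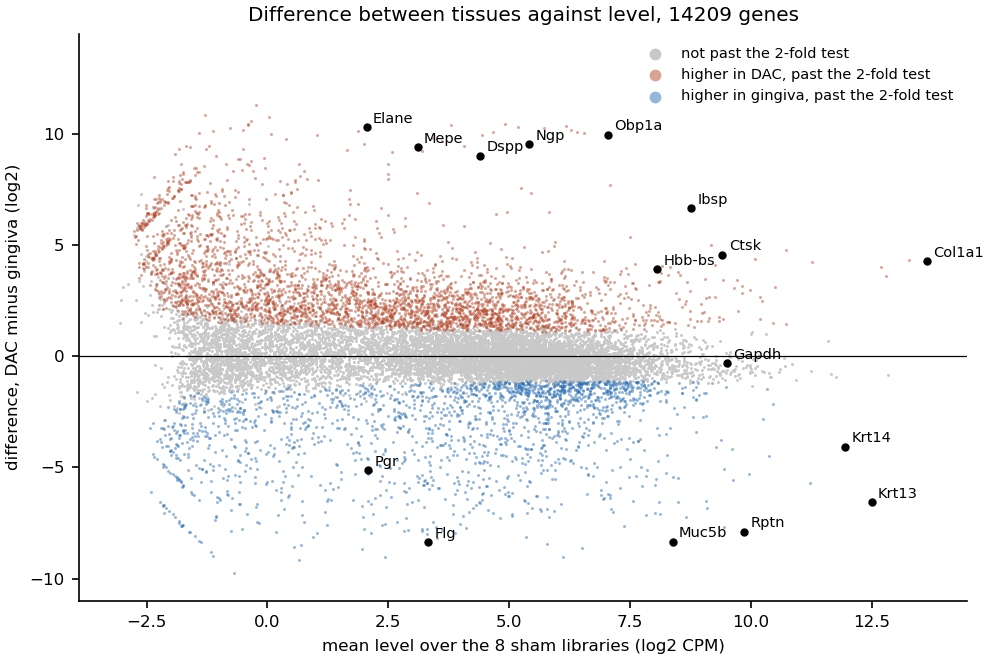
Difference between the tissues (DAC minus gingiva, log2) against the mean level over the 8 sham libraries (log2 CPM); each point is 1 of 14209 genes, coloured by the result of the 2-fold test. Mepe, Dspp, Elane, Ngp and Obp1a stand at 9.02 to 10.30, Muc5b, Flg and Rptn at −8.37 to −7.89, and Gapdh lies near 0.

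A few structural genes took much of each tissue's RNA. In the DAC the highest means were those of the type I collagen genes Col1a1 and Col1a2, the bone matrix glycoprotein gene Sparc, the type III collagen gene Col3a1 and the ligament matrix gene Postn (periostin). Col1a1 alone held 5.48 to 6.31% of counts there. In gingiva they were the mucosal keratin Krt13, with 5.95 to 7.77% of counts, Krt16, a keratin of activated epithelium, the basal-layer keratin Krt14, and the cornified envelope genes Rptn (repetin) and Lor (loricrin). Per length, within the DAC, Col1a1 stood at 8639 RPKM (CPM per kilobase of exon), Sparc at 7011 RPKM and Obp1a, an odorant-binding protein gene of nasal glands, at 6753 RPKM; within gingiva Krt13 stood at 38822 RPKM and Krt16 at 11267 RPKM. Among named, abundant genes without overlap, the 12 with the largest differences upward, log2 9.54 to 10.36, were the lipocalin genes Obp2a, Obp2b, Obp1a, Obp1b, Mup4 and Lcn11, the neutrophil precursor genes Elane, Fcnb, Mpo and Camp, the eosinophil gene Prg2, and the macroglobulin family gene A2ml1, and no bone gene. The 12 downward, log2 −9.04 to −7.93, included the cornified envelope genes Flg, Lce1a1, Lce1g, Lce1k and Kprp, the carboxypeptidase gene Cpa4, and the secretory or gland-associated genes Bpifb2, Chil4, Gp2 and Muc5b, with the monooxygenase family gene Fmo9.

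**Figure D2:**
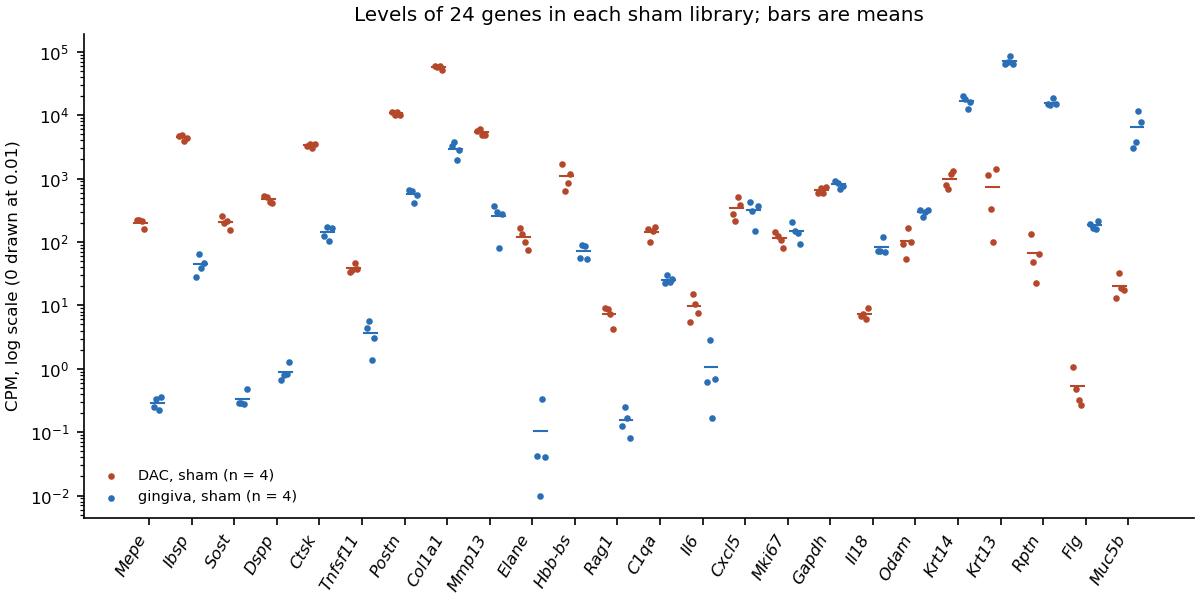
Level of 24 genes in each sham library (CPM, log scale), with DAC libraries in red on the left and gingival libraries in blue on the right of each pair; bars are means of 4 libraries and 0 is drawn at 0.01 CPM. Bone, dentin, osteoclast and marrow genes (left) have no overlap between the tissues, Cxcl5, Mki67 and Gapdh overlap, and keratin and envelope genes (right) are higher in every gingival library.

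The promoters of 4 genes that mark osteoblasts, epithelium and red cells are shown because these genes separate the tissues without overlap. Each is the 250 bases before the start site from RefSeq's table for GRCm38.p6 (gene coordinates elsewhere are GENCODE's on GRCm38), 5′ to 3′ on the gene's strand: Bglap, minus strand, chr3:88384467-88384716; Ibsp, plus strand, chr5:104299037-104299286; Krt13, minus strand, chr11:100121567-100121816; Alas2, plus strand, chrX:150547167-150547416. Capitals mark matches, on either strand, to the RUNX motif TGTGGT, the GATA motif AGATAA, the AP-1 motif TGANTCA and the TATA motif TATAAA, which was added to the others after results were known.
Bglap: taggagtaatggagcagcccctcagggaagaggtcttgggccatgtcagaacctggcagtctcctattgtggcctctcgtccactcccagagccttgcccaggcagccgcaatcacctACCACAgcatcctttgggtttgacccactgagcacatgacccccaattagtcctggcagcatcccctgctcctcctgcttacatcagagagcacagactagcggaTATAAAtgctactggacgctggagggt
Ibsp: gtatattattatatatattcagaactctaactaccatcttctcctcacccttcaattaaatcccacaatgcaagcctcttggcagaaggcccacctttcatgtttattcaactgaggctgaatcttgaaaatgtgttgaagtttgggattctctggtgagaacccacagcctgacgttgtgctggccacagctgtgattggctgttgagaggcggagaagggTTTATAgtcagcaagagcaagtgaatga
Krt13: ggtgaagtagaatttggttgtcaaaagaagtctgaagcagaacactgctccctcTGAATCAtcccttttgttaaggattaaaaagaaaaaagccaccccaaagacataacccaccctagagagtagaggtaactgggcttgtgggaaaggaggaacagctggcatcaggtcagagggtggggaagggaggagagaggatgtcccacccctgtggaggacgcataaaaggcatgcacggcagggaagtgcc
Alas2: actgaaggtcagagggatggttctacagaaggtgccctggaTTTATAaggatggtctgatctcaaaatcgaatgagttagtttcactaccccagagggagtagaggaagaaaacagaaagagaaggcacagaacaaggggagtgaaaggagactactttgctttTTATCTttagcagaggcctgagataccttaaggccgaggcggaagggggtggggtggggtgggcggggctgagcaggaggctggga
The Bglap promoter (osteocalcin) had a RUNX match on the opposite strand 132 to 127 bases before the start and a TATA match at 27 to 22. The Ibsp promoter held a TATA match on the opposite strand at 28 to 23, the Krt13 promoter an AP-1 match at 196 to 190, and the Alas2 promoter a GATA match on the opposite strand at 86 to 81 with a TATA match on the opposite strand at 209 to 204. Over the 10239 tested genes with a promoter in the table, these windows held the RUNX motif in 11.4%, the GATA motif in 6.68%, the AP-1 motif in 5.34% and the TATA motif in 8.21%. In the cornified envelope list 9 of 18 promoters held the AP-1 motif and 11 of 18 the TATA motif; 5 of 11 in the erythroid list held the GATA motif, and 3 of 10 in the bone list the RUNX motif. Several envelope genes are neighbouring copies with like promoters, so these shares do not count independent sequences, and a match is not a bound site.

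Genes of bone formation were higher in the DAC almost throughout. Of 16 bone matrix and osteoblast genes 14 were listed and tested, 13 passed upward and none downward, with a median log2 difference of 5.04. Ibsp, the bone sialoprotein that nucleates mineral (ENSMUSG00000029306, chr5:104299171-104311469), measured 4712, 4956, 3941 and 4330.3 CPM in the DAC libraries, against 28.1, 65.1, 38.7 and 46.6 CPM in the gingival libraries. Each DAC library was far above each gingival one, a log2 difference of 6.65 ± 0.42 (SE; edgeR glmTreat, adjusted p = 1.01e-10). Bglap, osteocalcin, a protein of mature osteoblasts, stood at 509.9, 342, 666 and 779 CPM in the DAC and at 3.16, 6.25, 11.4 and 5.09 CPM in gingiva. The groups did not overlap, and DAC replicate 2 was the lowest of its tissue; Bglap and its neighbour Bglap2 are near-identical copies, and reads that fit both were left out of the counts. Col1a1 (chr11:94936224-94953042) had 58871, 56643, 58899.7 and 52368 CPM in the DAC, against 3243, 3714, 1984 and 2782 CPM in gingiva. Type I collagen is the main protein of bone and also of soft connective tissue, and gingiva still held 1984 CPM or more; the log2 difference was 4.27 ± 0.28 (SE). Alpl, the alkaline phosphatase of mineralising cells, averaged 1178 ± 83.1 CPM in the DAC and 28.5 ± 5.17 CPM in gingiva (SD, n = 4 each). The exception was Smpd3, a sphingomyelinase gene, at 179 CPM in the DAC and 292 CPM in gingiva, which was lower without passing the 2-fold test (log2 −0.71). Runx2 and Sp7 are not analysed here.

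Osteocyte genes included the largest differences of the bone lists. Mepe, a matrix phosphoglycoprotein of osteocytes (ENSMUSG00000053863, chr5:104325329-104338611), had 222, 218, 211 and 158 CPM in the DAC, against 0.249, 0.335, 0.223 and 0.363 CPM in gingiva. Sost, sclerostin, the osteocyte inhibitor of Wnt signalling (chr11:101962458-101967015), had 257, 199, 212 and 154 CPM in the DAC, against 0.291, 0.293, 0.279 and 0.485 CPM in gingiva. Both were near 0 in every gingival library, and DAC replicate 4 was the lowest of its tissue for both. Their log2 differences were 9.39 ± 0.32 and 9.21 ± 0.41 (SE; edgeR glmTreat, adjusted p = 3.21e-14 and 8.75e-13). Dmp1 and Phex, osteocyte regulators of mineral and phosphate, averaged 564 and 258 CPM in the DAC, against 3.52 and 3.08 CPM in gingiva. Of 10 tested osteocyte genes 6 passed upward and none downward (median 2.17). The 4 that did not pass are either low or shared with other cells: Fgf23, the phosphate hormone of osteocytes, averaged 1.73 CPM in the DAC and 0.778 CPM in gingiva, and the adhesion receptor Cd44 averaged 422 and 777 CPM.

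Osteoclast genes were higher in the DAC. Of 12 tested, 10 passed upward and none downward, with a median of 4.00. Ctsk, cathepsin K, the protease that dissolves bone collagen (ENSMUSG00000028111, chr3:95499256-95509362), had 3305, 3500.4, 3072 and 3550.5 CPM in the DAC, against 125, 172, 103 and 166 CPM in gingiva, a log2 difference of 4.57 ± 0.24 (SE; edgeR glmTreat, adjusted p = 1.71e-11). The 4 DAC libraries lay close together, and gingiva was not at 0. Acp5, the tartrate-resistant phosphatase used to stain osteoclasts, averaged 3254 CPM in the DAC and 140.5 CPM in gingiva, and Atp6v0d2, an osteoclast proton pump subunit, averaged 223 and 7.28 CPM. Ocstamp and Oscar, a fusion protein and a receptor of osteoclasts, differed by 3.89 and 4.54 (log2), and Calcr, the calcitonin receptor, by 5.14 at only 3.31 CPM in the DAC. Ostm1 and Atp6v1b2, lysosomal genes of most cells, did not pass (log2 0.79 and −0.15).

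The signals that drive osteoclasts did not all go the same way. Tnfsf11, the gene of RANKL (chr14:78277445-78308043), had 33.9, 36.1, 46.7 and 37.6 CPM in the DAC, against 4.37, 5.62, 1.39 and 3.03 CPM in gingiva. The groups did not overlap, and gingival replicate 3 was the lowest; the log2 difference was 3.40 ± 0.36 (SE; edgeR glmTreat, adjusted p = 7.72e-07). Its receptor gene Tnfrsf11a (RANK) and Csf1, the growth factor of osteoclast precursors, were higher by 1.95 and 2.21 (log2). Traf6, the adaptor that carries the signal inside the cell, was lower in the DAC, at 36.1, 37.9, 31.7 and 32.9 CPM, against 86.4, 93.1, 123 and 85.4 CPM in gingiva (log2 −1.49, edgeR glmTreat adjusted p = 0.00136, and 0.0812 where DAC replicate 2 alone stood for the DAC). The coupling factors Sema3a, Efnb2 and Ephb4 did not pass, with log2 differences of 0.32, 0.04 and 0.58. Of these 7 tested genes 3 passed upward and 1 downward, with a median of 0.58. The decoy receptor Tnfrsf11b is not analysed here.

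Dentin genes were higher in the DAC, which was harvested with its teeth. Dspp, the dentin sialophosphoprotein of odontoblasts (ENSMUSG00000053268, chr5:104170712-104180127), had 524, 515, 426 and 419 CPM in the DAC, against 0.665, 0.796, 0.836 and 1.29 CPM in gingiva. Every DAC library held over 400 CPM and the gingival ones at most 1.29 CPM; the log2 difference was 9.02 ± 0.36 (SE; edgeR glmTreat, adjusted p = 2.26e-13). Nes, nestin, an intermediate filament of odontoblasts, and the tooth homeobox genes Msx1 and Lhx8 were higher by 4.67, 3.60 and 2.68 (log2). Of 11 tested odontoblast genes 7 passed upward and 1 downward: Klf4, a factor of odontoblasts and also of differentiating epithelium, averaged 90.6 CPM in the DAC and 1030.1 CPM in gingiva. Wnt10a, a ligand needed for tooth development, averaged 43.3 and 39.2 CPM (log2 0.15, not passed). The list shares Dmp1, Phex and Col1a1 with bone.

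Enamel genes went both ways. Ambn, ameloblastin, had 12.5, 16.4, 12.6 and 12.6 CPM in the DAC, against 0.0416, 0.126, 0.279 and 0.162 CPM in gingiva. Mmp20, the enamel matrix protease, had 102 counts over the 4 DAC libraries and 0 over the 4 gingival ones, at least 35.2-fold higher in the DAC against a floor of 3 counts over the group. Amelx, amelogenin, was uneven, at 5.62, 6.20, 0 and 0 CPM in the DAC and 0.166, 0, 0 and 0 CPM in gingiva; it was detected in DAC replicates 1 and 2 alone of that tissue, and its call (adjusted p = 0.0452, edgeR glmTreat) was lost without any of 6 of the 8 libraries. Amtn, amelotin, which in mice marks late ameloblasts and the junctional epithelium, had 9.65, 8.14, 8.69 and 9.92 CPM in the DAC, against 0.249, 0.0419, 0.279 and 0.121 CPM in gingiva. Odam and Odaph went the other way. Odam, a protein of the junctional epithelium that seals gum to tooth, had 94.4, 53.7, 167 and 101 CPM in the DAC, against 319, 248, 299 and 322 CPM in gingiva, without overlap, and Odaph averaged 62.0 and 166 CPM. Odam passed narrowly (log2 −1.51 ± 0.32, SE; edgeR glmTreat, adjusted p = 0.0479) and lost that call without any of 6 of the 8 libraries, up to an adjusted p of 0.160 without DAC replicate 2, while Odaph did not pass the 2-fold test (log2 −1.42). In all, 4 of 10 tested enamel genes passed upward and 3 downward, with a median of −0.49. The count of 3 became 1 without gingival replicate 1 or 4, without DAC replicate 1, under either of 2 other scalings, and with limma-voom or DESeq2. The others that were lower, Wdr72 and Itgb6, an ion transport related gene and an epithelial integrin, averaged 1.57 and 5.82 CPM in the DAC and 4.34 and 36.2 CPM in gingiva; the call of Wdr72 was lost without any of 4 of the 8 libraries (edgeR glmTreat, adjusted p up to 0.114).

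Ligament and cartilage genes were higher where they passed. Postn, periostin, a matrix protein rich in the ligament (ENSMUSG00000027750, chr3:54361109-54391037), had 11121, 10183, 11379 and 10144 CPM in the DAC, against 664, 637, 418 and 560.4 CPM in gingiva, a log2 difference of 4.23 ± 0.26 (SE; edgeR glmTreat, adjusted p = 1.58e-10). Each DAC library held more than any gingival library by over 10-fold. Tnn, tenascin W, and Fmod, fibromodulin, both of fibrous matrix, were higher by 4.03 and 2.21 (log2), while the tendon gene Tnmd, at 21.4 CPM in the DAC and 15.3 CPM in gingiva, did not pass. Of 6 tested ligament and tendon genes 4 passed upward, and of 8 cartilage genes 6, none downward. Acan, aggrecan, of cartilage matrix, averaged 20.5 CPM in the DAC and 3.53 CPM in gingiva, and Col9a1 averaged 1.26 and 0.128 CPM. Col11a1, a fibril collagen that bone also makes, averaged 1138 CPM in the DAC and 89.5 CPM in gingiva. Col2a1 and Sox9 are not analysed here.

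Most collagen genes were higher in the DAC. Of 26 tested 20 passed upward and 3 downward (median 2.65). The fibrillar genes Col3a1, Col5a1 and Col5a2 were higher in the DAC by 3.60, 3.41 and 3.44 (log2), the vascular basement membrane genes Col4a1 and Col4a2 by 1.60 and 1.54. Lower were Col7a1, the anchoring fibril under stratified epithelium, and Col4a5 and Col4a6, a pair of type IV chains of epithelial basement membranes. Col7a1 had 24.5, 15.7, 28.4 and 21.6 CPM in the DAC, against 182, 118, 94.1 and 133 CPM in gingiva, without overlap (log2 −2.54 ± 0.26, SE; edgeR glmTreat, adjusted p = 2.27e-06). Col4a5 averaged 3.14 and 19.6 CPM, and Col4a6 averaged 0.462 and 13.7 CPM, in the DAC and in gingiva.

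Matrix-degrading enzymes and their inhibitors were higher together. Of 20 tested genes 17 passed upward and none downward (median 3.14). Mmp13, the collagenase of bone and of inflamed matrix (chr9:7272514-7283331), had 5539, 6079, 4799.6 and 4912 CPM in the DAC, against 369, 295, 80.04 and 275 CPM in gingiva. Gingival replicate 3 was the lowest of its group, and no DAC library came near the gingival range (log2 4.39 ± 0.39, SE; edgeR glmTreat, adjusted p = 2.56e-08). The inhibitor gene Timp1 had 582, 538, 496 and 688 CPM in the DAC and 37.4, 37.6, 12.8 and 28.8 CPM in gingiva, and gingival replicate 3 was again the lowest. Mmp2, Mmp9 and Mmp14, gelatinases and a membrane-bound collagenase, differed by 2.82, 4.11 and 2.60 (log2). Mmp3, Mmp10 and the macrophage elastase Mmp12 did not pass (log2 1.63, 0.83 and −0.76). Mmp8 and Mmp9 are also neutrophil enzymes.

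Genes of blood-forming marrow were higher in the DAC. All 15 tested red cell genes passed upward (median 6.13). Hbb-bs, an adult beta globin, had 1684, 631, 846 and 1194 CPM in the DAC, against 56.2, 90.7, 86.9 and 54.6 CPM in gingiva, and Gata1, the factor that commits cells to the red lineage, had 13.4, 6.74, 7.24 and 5.36 CPM in the DAC, against 0, 0, 0.0557 and 0.162 CPM in gingiva. DAC replicate 1 was the highest for both, and no groups overlapped; globin RNA is present in circulating blood as well, and Gata1 had no count in gingival replicates 1 and 2. The log2 differences were 3.92 ± 0.39 and 7.09 ± 0.58 (SE; edgeR glmTreat, adjusted p = 2.31e-07 and 4.02e-09). Slc4a1, the red cell anion exchanger, averaged 103 CPM in the DAC and 0.254 CPM in gingiva, and Alas2, the first enzyme of red cell haem synthesis, averaged 74.2 and 7.04 CPM. Hba-a1 with Hba-a2 and Hbb-bs with Hbb-bt are near-identical pairs, so their separate levels are uncertain. Among 9 platelet lineage genes 7 passed upward, while the platelet chemokine Ppbp, also made in other inflamed cells, averaged 637 CPM in the DAC and 828 CPM in gingiva and did not pass. Of the 7 calls, that of Itga2b was lost without any of 5 of the 8 libraries (edgeR glmTreat, adjusted p up to 0.216). That of Selp was lost without gingival replicate 3 (edgeR glmTreat, adjusted p = 0.0773).

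Granule genes that neutrophils make only while they mature in marrow gave the highest list median of all, 9.28, and all 11 tested passed upward. Elane, neutrophil elastase (ENSMUSG00000020125, chr10:79886247-79888215), had 168, 135, 98.4 and 73.9 CPM in the DAC, against 0.0416, 0, 0.334 and 0.0404 CPM in gingiva. Ngp, a granule protein of later precursors, had 1130.4, 1657, 1056 and 778 CPM in the DAC, against 1.46, 1.59, 1.62 and 1.57 CPM in gingiva. Gingiva was near 0 in every library, and DAC replicate 4 was the lowest of its tissue in both; the log2 differences were 10.30 ± 0.47 and 9.53 ± 0.49 (SE; edgeR glmTreat, adjusted p = 9.63e-13 and 4.21e-12). Mpo, myeloperoxidase, averaged 304 CPM in the DAC and 0.353 CPM in gingiva, and Fcnb, ficolin B, had 3230 counts in the DAC and 3 in gingiva, a ratio of 1113 (exact 95% interval 381 to 5400, counting error only). Genes of mature neutrophils, which also enter inflamed gum, had a lower median: 8 of 9 passed upward, with a median of 2.15. The alarmin gene S100a8 had 1411, 1798, 1396 and 1526 CPM in the DAC, against 819, 765, 687 and 597 CPM in gingiva; the DAC was higher in every library, but by a log2 difference of 1.10 ± 0.21 (SE), which did not pass the 2-fold test (edgeR glmTreat adjusted p = 0.317). Its partner S100a9, at 2788 CPM in the DAC and 1038 CPM in gingiva, passed narrowly and lost the call without any of 5 of the 8 libraries. The chemokine receptor Cxcr2, the growth factor receptor Csf3r and the collagenase Mmp8 were higher by 1.93, 2.15 and 5.12 (log2).

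B lymphocyte genes were higher in the DAC, and several were near 0 in gingiva. Of 9 precursor genes 8 passed upward (median 5.52). Rag1, the recombinase that assembles receptor genes (chr2:101638282-101649501), had 9.16, 8.81, 7.24 and 4.17 CPM in the DAC, against 0.125, 0.252, 0.167 and 0.0808 CPM in gingiva, and its partner Rag2 had 147 counts in the DAC and 0 in gingiva, at least 50.7-fold higher against a floor of 3 counts over the group. Cd79a, the signalling chain of the B cell receptor, had 26.7, 18.8, 27.2 and 16.1 CPM in the DAC, against 0.125, 0.335, 1.06 and 0.202 CPM in gingiva. The groups were apart in each case, with DAC replicate 4 the lowest of its tissue for Rag1 and Cd79a and gingival replicate 3 the highest of its tissue for Cd79a. Vpreb3, of the surrogate light chain family, averaged 13.2 CPM in the DAC and 0.0623 CPM in gingiva. Of the 10 mature B and plasma cell genes 6 passed upward and 1 downward. The antibody joining chain Jchain had 32.5, 19.8, 21.6 and 57.1 CPM in the DAC, against 0.125, 0.126, 1.45 and 0.323 CPM in gingiva, again with gingival replicate 3 the highest of its tissue, and the factor Prdm1, which plasma cells share with keratinocytes, averaged 27.1 CPM in the DAC and 129 CPM in gingiva, where it was higher. Among 13 progenitor genes 9 passed upward and 2 downward: Myb and Spi1, factors of progenitors and of myeloid cells, were higher by 3.12 and 3.51 (log2), Hoxa9 had 35 counts in the DAC and 0 in gingiva (at least 12.1-fold), and Meis1 and Cebpa were lower (log2 −3.24 and −1.43).

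**Figure D3:**
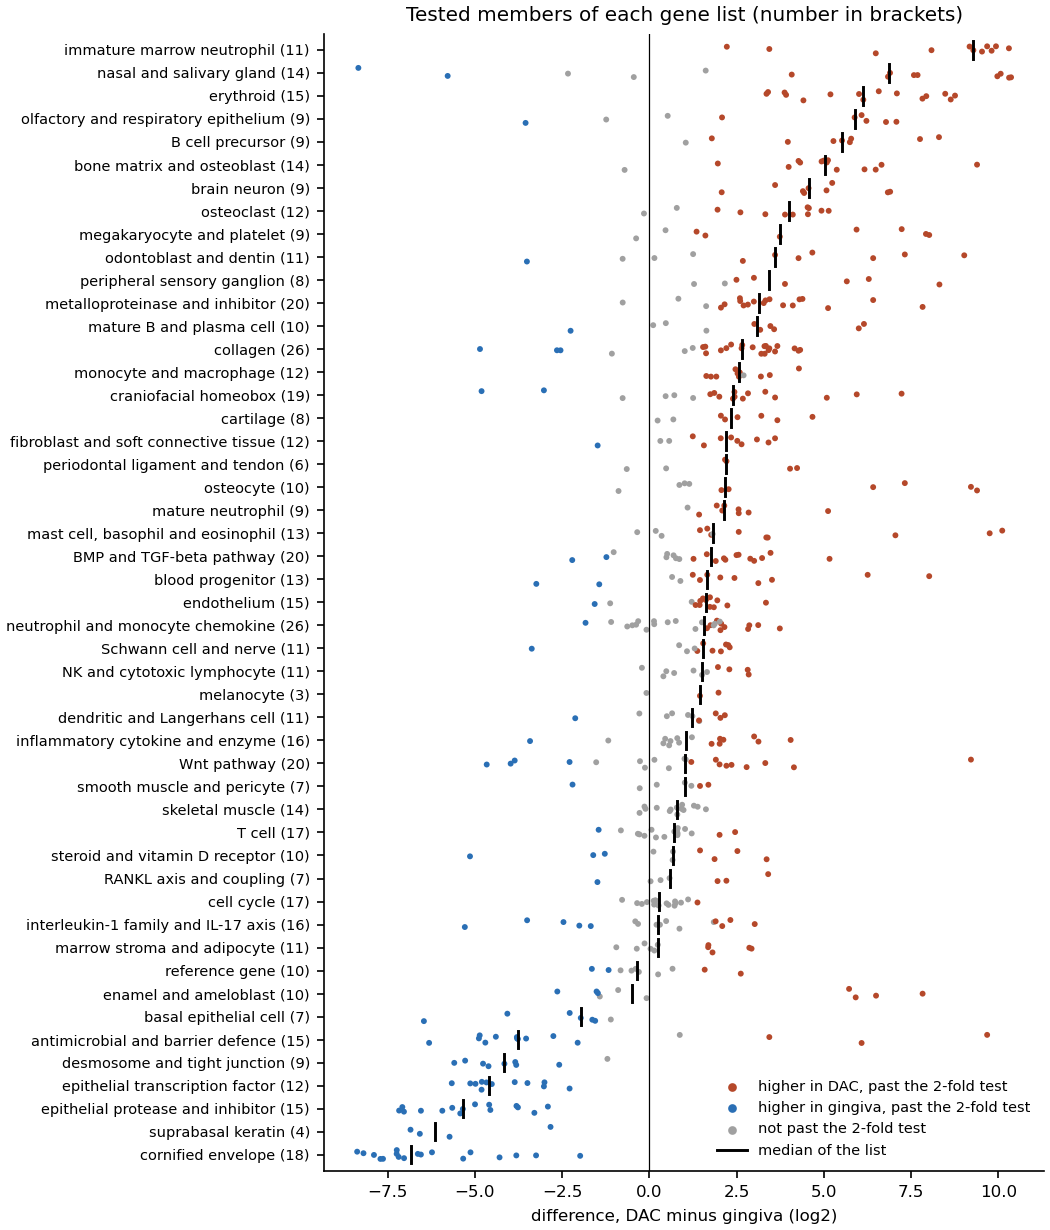
Log2 difference (DAC minus gingiva) of every tested member of 49 gene lists, with the number tested in brackets and a black bar at the median; red and blue points passed the 2-fold test. Immature neutrophil and erythroid genes lie at the high end and cornified envelope genes at the low end, while T cell, muscle, cell cycle and interleukin-1 family genes lie on both sides of 0.

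Eosinophil granule genes accompanied the marrow genes. Prg2, the major basic protein (chr2:84980461-84983632), had 112, 164, 122 and 15.4 CPM in the DAC, against 0.0832, 0.0838, 0.111 and 0.0808 CPM in gingiva. DAC replicate 4 was far below the other 3 and still above gingiva (log2 10.11 ± 0.92, SE; edgeR glmTreat, adjusted p = 1.37e-08). Epx, eosinophil peroxidase, had 1971 counts in the DAC and 2 in gingiva, a ratio of 1019 (exact 95% interval 282 to 8419, counting error only). Of 13 genes of mast cells, basophils and eosinophils 9 passed upward and none downward, whereas the mast cell proteases Cpa3, Cma1 and Mcpt4 did not pass, with 5.54, 5.01 and 5.38 CPM in the DAC and 4.36, 4.41 and 6.85 CPM in gingiva. The stem cell factor receptor Kit, which mast cells share with progenitors and melanocytes, was higher by 1.45 (log2).

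Macrophage genes were higher in the DAC, and few T cell genes passed. Of 12 monocyte and macrophage genes 11 passed upward (median 2.57). C1qa, a complement gene of tissue macrophages, had 162, 102, 147 and 172 CPM in the DAC, against 22.7, 29.7, 22.96 and 25.8 CPM in gingiva, and Lyz2, lysozyme of myeloid cells, averaged 1782 and 163 CPM. Osteoclasts share the lysosomal gene Cd68, which was higher by 3.20 (log2). Of 17 T cell genes 2 passed upward and 1 downward, against 23.1% and 13.2% of all genes, with a median of 0.72; the downward call was lost without gingival replicate 3, DAC replicate 1 or DAC replicate 2. Cd4, a co-receptor that monocytes also carry in humans, had 16.2, 12.9, 16.9 and 12.1 CPM in the DAC, against 2.37, 3.69, 2.23 and 2.26 CPM in gingiva, and Tcf7 was higher by 2.01 (log2). Cd3e, a chain of the T cell receptor complex, had 3.00, 0.486, 2.17 and 2.33 CPM in the DAC, against 2.20, 2.10, 2.34 and 2.26 CPM in gingiva. Cd3g, another chain, had 2.70, 0.547, 3.98 and 4.78 CPM in the DAC, against 2.54, 2.64, 3.85 and 2.58 CPM in gingiva. DAC replicate 2 was well below every other library for both, and the remaining libraries of the tissues overlapped. With DAC replicate 2 as the only DAC library, Cd3g came out lower (log2 −2.39) and the list's median was −1.08. The regulatory T cell factor Foxp3 had 1.29, 0.729, 0.951 and 0.527 CPM in the DAC and 1.37, 2.01, 1.45 and 1.37 CPM in gingiva (log2 −0.81, not passed).

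Some cytotoxic and dendritic cell genes were higher in the DAC. The counts stand against 23.1% of all genes upward and 13.2% downward. Of 11 natural killer and cytotoxic genes 4 passed upward, led by Eomes and the granule gene Nkg7, which had 17.5, 11.9, 9.83 and 9.22 CPM in the DAC, against 1.497, 1.80, 1.78 and 1.78 CPM in gingiva, without overlap (log2 2.82 ± 0.27, SE). Ifng, interferon gamma, averaged 0.252 and 0.203 CPM and did not pass. With only DAC replicate 2 in the DAC, the count of 4 became 2 and the list's median was 0.65, against 1.51 with all libraries. Of 11 dendritic cell genes 4 passed upward (2 with only that library) and 1 downward. Cd207, langerin, which marks Langerhans cells of epithelium, was the one lower: it had 0.9497, 0.729, 1.18 and 1.23 CPM in the DAC, against 3.28, 5.16, 7.75 and 1.82 CPM in gingiva, without overlap (log2 −2.12 ± 0.33, SE; edgeR glmTreat, adjusted p = 0.000838). Siglech of plasmacytoid dendritic cells and Ccr7 of migrating ones were higher by 2.16 and 1.90 (log2). The class II antigen genes are not analysed here.

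Epithelial genes were lower in the DAC. The mucosal keratin Krt13 (ENSMUSG00000044041, chr11:100117327-100121566) had 1125, 327, 101 and 1415 CPM in the DAC, against 63329, 68342, 86633 and 64477 CPM in gingiva. The DAC libraries themselves differed more than 10-fold, replicates 1 and 4 being high and replicate 3 low, and the highest was still far below any gingival library (log2 −6.57 ± 0.99, SE; edgeR glmTreat, adjusted p = 1.55e-05). Krt14, the keratin of basal cells, had 806, 686, 1168 and 1327 CPM in the DAC, against 20338, 18022, 12540.0 and 15906 CPM in gingiva, with less spread among the DAC libraries and a smaller difference (log2 −4.07 ± 0.33, SE). Krt10, a keratin of cornifying layers, had 218, 25.6, 15.3 and 23.9 CPM in the DAC, against 9558, 6397, 6274 and 10171 CPM in gingiva, and DAC replicate 1 stood apart. The 4 tested suprabasal keratins were all lower, and 6 of 7 basal cell genes were, with medians of −6.15 and −1.96. Krt5, Krt1, Krt4 and Trp63 are not analysed here.

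The cornified envelope gave the lowest median, −6.83, and all 18 tested genes were lower, against 13.2% of all genes. Rptn, repetin (chr3:93393699-93399442), had 132, 48.4, 22.6 and 63.7 CPM in the DAC, against 15141, 14359, 18608 and 15018 CPM in gingiva, and Flg, filaggrin, which bundles keratin, had 1.06, 0.486, 0.317 and 0.263 CPM in the DAC, against 194, 168, 161 and 213 CPM in gingiva. DAC replicate 1 was the highest of its tissue for both and the tissues stayed far apart, with log2 differences of −7.89 ± 1.04 and −8.37 ± 0.92 (SE; edgeR glmTreat, adjusted p = 2.52e-06 and 2.25e-07). Lor, loricrin, averaged 54.6 CPM in the DAC and 11389 CPM in gingiva, and the cross-linking enzymes Tgm1 and Tgm3 differed by −3.81 and −7.24 (log2). The smallest difference was that of Sprr2d (log2 −1.98), whose call was lost without gingival replicate 1, DAC replicate 1 or DAC replicate 2. The Lce and Sprr genes are tandem copies with like sequences, so levels of single members are uncertain.

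The cell contacts and regulators of epithelium followed. Of 9 desmosome and tight junction genes 8 were lower, and all 12 tested epithelial transcription factor genes were. Pkp1, a desmosome plaque protein, had 133, 81.4, 108 and 141 CPM in the DAC, against 5752, 5555, 5485 and 5498 CPM in gingiva, and the gingival libraries lay close together (log2 −5.59 ± 0.52, SE). Cdh1, E-cadherin, averaged 50.1 CPM in the DAC and 718 CPM in gingiva. Grhl3, a factor that drives barrier formation, had 5.93, 4.74, 5.43 and 8.21 CPM in the DAC, against 283, 288, 394 and 268 CPM in gingiva (log2 −5.66 ± 0.53, SE; edgeR glmTreat, adjusted p = 3.13e-08). Gingival replicate 3 was its highest library. Ehf and Esrp1, an epithelial Ets factor and a splicing regulator, were lower by log2 differences of −5.13 and −4.98, and Elf3 and Elf5 by −2.28 and −3.00.

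Proteases, their inhibitors and antimicrobial proteins of the surface were lower with the envelope. All 15 tested epithelial proteases and inhibitors were lower (median −5.34). Klk7, the kallikrein that loosens the cornified layer, had 2.93, 0.790, 0.226 and 2.24 CPM in the DAC, against 249, 209.6, 261 and 206 CPM in gingiva. Serpinb3a and Asprv1, an inhibitor and a filaggrin-processing protease, averaged 29.6 and 29.9 CPM in the DAC and 3999.9 and 2788 CPM in gingiva. Defb4, a beta defensin induced in inflamed epithelium, had 11.3, 2.55, 0.815 and 12.3 CPM in the DAC, against 473, 508, 733 and 454 CPM in gingiva (log2 −6.31 ± 1.04, SE; edgeR glmTreat, adjusted p = 5.38e-05), and both genes were highest in DAC replicates 1 and 4 and lowest in replicate 3. Of 15 tested antimicrobial genes 11 were lower and 3 higher. Higher were Camp (cathelicidin) and Lcn2 (lipocalin 2), which neutrophil precursors make, and Reg3g, a lectin of mucosal surfaces, with 14.7, 62.9, 42.8 and 57.1 CPM in the DAC and 0.457, 1.51, 0.446 and 0.162 CPM in gingiva.

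RNA of nasal glands, olfactory epithelium and nerve cells was present in the DAC libraries and uneven among them. Obp1a, an odorant-binding protein of nasal glands (chrX:78085505-78091374), had 5920.4, 447, 8358 and 5723 CPM in the DAC, against 4.53, 5.28, 4.57 and 5.98 CPM in gingiva. DAC replicate 2 was lower than the other 3 by over 10-fold and still far above gingiva (log2 9.97 ± 1.02, SE; edgeR glmTreat, adjusted p = 6.5e-08). The Obp genes are close paralogues, so single levels are uncertain. Obp2a, Mup4 and Lcn11, lipocalins of the same kind, showed the same library as the lowest, at 242, 158 and 55.8 CPM. Bpifb9b, a secreted nasal protein, had 4262, 1406, 2222 and 746 CPM in the DAC and 11.8, 11.5, 10.2 and 8.48 CPM in gingiva, with DAC replicate 1 the highest. Omp, the olfactory marker protein of smell neurons, had 70.7, 259, 168 and 32.7 CPM in the DAC, against 0.665, 6.25, 1.00 and 0.929 CPM in gingiva. Here DAC replicate 2 was the highest, not the lowest, and gingival replicate 2 stood above the rest of its tissue. Of 9 tested olfactory and respiratory genes 6 passed upward and 1 downward (median 5.88). Their summed share was not higher in the DAC. It was 0.0292, 0.0896, 0.0634 and 0.0295% in the DAC libraries and 0.0662, 0.0936, 0.149 and 0.0990% in the gingival libraries. The summed share of the 14 nasal and salivary gland genes was 2.18, 0.383, 2.48 and 1.82% in the DAC libraries and 0.294, 0.361, 1.06 and 0.779% in the gingival libraries; 9 of the 14 were higher in the DAC and 2 lower.

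Muc5b and Dmbt1, both of secretory epithelium, were the genes of that list that were lower in the DAC. Muc5b, a gel-forming mucin of mucous glands (chr7:141839070-141873084), had 13.2, 32.3, 19.1 and 17.3 CPM in the DAC, against 3058, 3731, 11698 and 7904 CPM in gingiva. Gingival replicates 3 and 4 held more than replicates 1 and 2, and all lay far above the DAC (log2 −8.33 ± 0.99, SE; edgeR glmTreat, adjusted p = 5.28e-07). Bpifb2 had 3.34, 2.86, 3.31 and 3.25 CPM in the DAC and 790.1, 938, 2978 and 2042 CPM in gingiva, with the same 2 gingival libraries the highest. Gp2, a secretory granule membrane protein, had 4.79, 2.31, 2.35 and 3.69 CPM in the DAC and 469, 586, 2156 and 1375 CPM in gingiva. Chil4, a chitinase-like protein, followed another order, with 6.69, 3.22, 2.45 and 10.9 CPM in the DAC and 1298, 3214, 4429.6 and 430.4 CPM in gingiva, where replicate 4 was the lowest. The part of gland tissue in any other gene's difference was not tested.

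**Figure D4:**
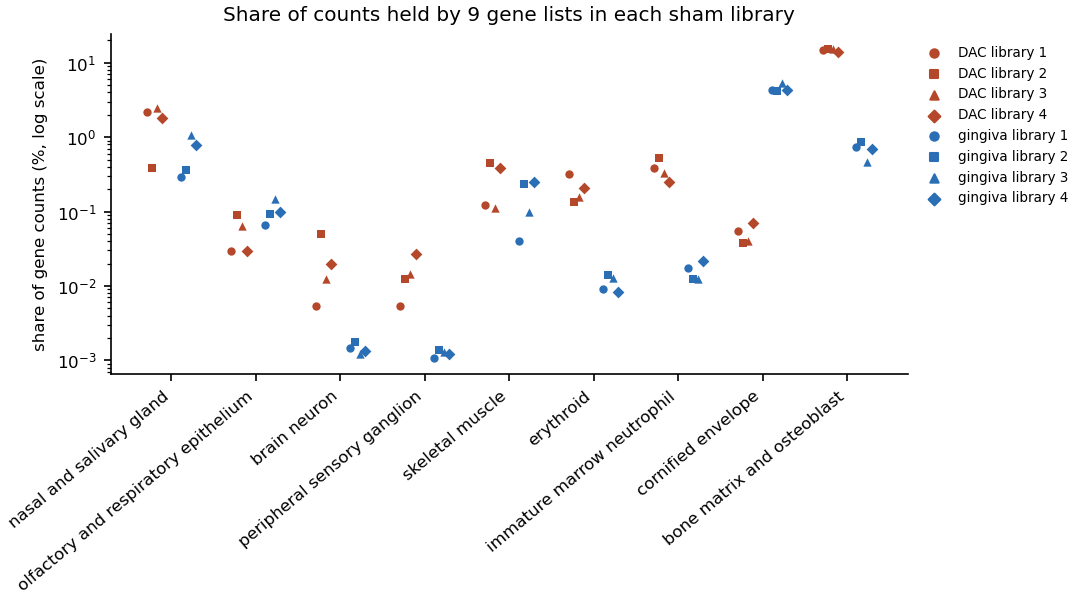
Share of all gene counts (%, log scale) that 9 gene lists held in each sham library, with DAC libraries in red on the left and gingival libraries in blue on the right; symbols give the replicate number. Nasal gland, brain neuron, ganglion and muscle shares differ several-fold among libraries of 1 tissue, while bone and cornified envelope shares do not.

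Nerve cell genes varied between the DAC libraries. All 9 tested brain neuron genes passed upward, with a median of 4.56, but the share they held was 0.00546, 0.0503, 0.0122 and 0.0196% in the DAC libraries, against 0.00149, 0.00175, 0.00124 and 0.00132% in the gingival libraries. Gad1, the enzyme of the transmitter GABA, had 3.50, 66.4, 3.67 and 3.29 CPM in the DAC, against 0.0832, 0.252, 0.167 and 0.121 CPM in gingiva, and DAC replicate 2 alone was high. Gad2, another such enzyme, had 0.304, 21.7, 0.136 and 0.615 CPM in the DAC, against 0.0416, 0.293, 0.279 and 0.323 CPM in gingiva, again high in that library alone. Its call was lost without DAC replicate 2 (adjusted p = 1, edgeR glmTreat) and without gingival replicate 1, and that of the glutamate transporter gene Slc17a7 without DAC replicate 2 (edgeR glmTreat, adjusted p = 0.493). Grin1, of the same list, also lost its call without DAC replicate 2 (edgeR glmTreat, adjusted p = 0.0843). Without DAC replicates 2 and 4, which held the most of this RNA, 5 of the 9 passed, with a median of 2.45. Of 8 tested ganglion genes 6 passed upward, and Nefl, a neurofilament of large axons, had 0.304, 15.7, 9.37 and 23.1 CPM in the DAC, against 0, 0.0838, 0 and 0.0404 CPM in gingiva. Over the tissues that is 1000 counts in the DAC and 3 in gingiva, a ratio of 345. The exact 95% interval of that ratio, 118 to 1674, covers counting error only and not the spread between libraries. DAC replicate 4 was the highest, replicate 1 close to 0. The ganglion count was 3 of 5 tested with the 8 sham libraries alone and 4 of 8 with DAC replicate 2 as the only DAC library. Genes of Schwann cells, the sheath of peripheral nerve, were higher too: 7 of 11 passed upward, among them Mag and S100b (log2 2.30 and 2.05), and 1 downward, Erbb3, a receptor that epithelium also carries, at 20.03 CPM in the DAC and 207 CPM in gingiva.

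Skeletal muscle genes did not pass. None of 14 tested genes passed the 2-fold test by edgeR glmTreat, and 1 (Myh2) had an edgeR quasi-likelihood adjusted p under 0.05. Myh1, a fast myosin heavy chain, had 155, 718, 132 and 444 CPM in the DAC, against 107, 639.5, 248 and 600.3 CPM in gingiva. Replicates 2 and 4 were the high ones in both tissues, and the groups overlapped (log2 −0.14 ± 0.65, SE; edgeR adjusted p = 0.853). The summed share was 0.122, 0.453, 0.111 and 0.385% in the DAC and 0.0408, 0.234, 0.0983 and 0.249% in gingiva. The list's median of 0.80 turned to −0.35 without DAC replicates 2 and 4 and was 1.44 with DAC replicate 2 alone.

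Fibroblast and endothelial genes were mostly higher in the DAC, and stroma, fat cell, smooth muscle and pericyte genes only in part. Of 12 fibroblast genes 9 passed upward, such as Lum (lumican) and Pdgfra, by log2 differences of 3.08 and 2.52, and Gsn, gelsolin, was lower (log2 −1.48). Cxcl12, the chemokine by which marrow stroma holds blood stem cells, had 537, 417, 444 and 460.2 CPM in the DAC, against 53.2, 86.3, 51.2 and 64.5 CPM in gingiva, without overlap (log2 2.86 ± 0.22, SE; edgeR glmTreat, adjusted p = 1.6e-08). Of 11 stroma and fat cell genes 5 passed upward, with a list median of 0.24. The fat cell gene Lpl was among the 5, and its call was kept when any of the 8 libraries was left out. The fat cell genes Fabp4, Pparg, Cidec and Plin1 did not pass (log2 0.14, 0.04, −0.36 and −0.95). Among 15 endothelial genes 12 passed upward (8 with DAC replicate 2 as the only DAC library). Emcn, endomucin, of capillaries and bone vessels, had 91.6, 80.4, 93.4 and 110.3 CPM in the DAC, against 22.4, 23.8, 13.2 and 20.3 CPM in gingiva (log2 2.24 ± 0.20, SE), and Stab2, a scavenger receptor of sinusoids, had 10.1, 7.59, 5.52 and 3.51 CPM in the DAC, against 0.540, 0.545, 0.780 and 0.767 CPM in gingiva, also without overlap. Prox1 and Lyve1, genes of lymphatic vessels, went the other way. Prox1 had 1.37, 1.64, 2.13 and 1.32 CPM in the DAC, against 4.12, 6.497, 3.62 and 4.85 CPM in gingiva (log2 −1.57 ± 0.33, SE; edgeR glmTreat, adjusted p = 0.0377, a call lost without any of 5 of the 8 libraries), and Lyve1 averaged 4.71 and 10.3 CPM without passing. Of 7 smooth muscle and pericyte genes the pericyte genes Rgs5 and Mcam were higher and the contractile gene Cnn1 lower, with 3.63 CPM in the DAC and 16.8 CPM in gingiva. By the edgeR quasi-likelihood test (adjusted p under 0.05) 4 differed upward and 1 downward, against 39.7% and 35.4% of all genes. The contractile gene Tagln was among those upward, without passing the 2-fold test. Of 3 tested melanocyte genes Kit and Mitf, which other cells share, were higher, and Pmel, a pigment granule protein, averaged 0.929 CPM in the DAC and 0.987 CPM in gingiva.

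Developmental signals differed by ligand. Of 20 tested Wnt pathway genes 9 passed upward and 4 downward (median 1.03). Those higher in the DAC include the inhibitors Sost, Sfrp2, Dkk3 and Wif1; Wif1 had 925, 728, 941 and 785 CPM in the DAC, against 56.5, 65.5, 28.3 and 41.0 CPM in gingiva, without overlap (log2 4.14 ± 0.24, SE; edgeR glmTreat, adjusted p = 6.93e-11). Wnt4, a ligand made in epithelium, had 26.1, 18.5, 27.2 and 29.3 CPM in the DAC, against 406, 378, 436 and 368 CPM in gingiva (log2 −3.97 ± 0.18, SE; edgeR glmTreat, adjusted p = 4.21e-12), and Wnt3a, Wnt16 and the receptor Fzd10 were lower too. Wnt5b was higher by 3.32 (log2), whereas Wnt5a and Wnt10a did not pass (log2 0.56 and 0.15). Of 20 BMP and TGF-beta genes 12 passed upward and 2 downward. Tgfb1, stored in bone matrix and active in wound repair, had 423, 351, 401 and 374 CPM in the DAC, against 53.2, 49.2, 43.8 and 47.1 CPM in gingiva (log2 3.00 ± 0.14, SE). Bmp8a, Bmp5 and Bmp3 were higher by 5.16, 3.47 and 2.50 (log2), and Bmp7 had a log2 difference of −1.23, a call lost without any of 5 of the 8 libraries.

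Homeobox genes of the face mostly passed upward. Of 19 tested 13 passed upward and 2 downward. The mesenchymal genes Msx1, Dlx1, Prrx2 and Shox2 were higher by 3.60, 3.32, 2.83 and 2.44 (log2). Msx1, a tooth and jaw patterning factor, had 106, 89.8, 109 and 107 CPM in the DAC, against 9.23, 9.68, 6.63 and 8.24 CPM in gingiva, without overlap. Barx2, a factor of oral epithelium, had 3.95, 1.88, 4.21 and 7.33 CPM in the DAC, against 94.9, 116, 176 and 106 CPM in gingiva, also without overlap (log2 −4.81 ± 0.51, SE; edgeR glmTreat, adjusted p = 3.36e-07). Hoxb2, a hindbrain patterning gene, had 68 counts in the DAC and 0 in gingiva, at least 23.4-fold higher against 3 counts over the group. It averaged 0.776 CPM in the DAC.

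Inflammatory genes were on both sides, read against 23.1% of all genes upward and 13.2% downward. Of 16 tested interleukin-1 family and interleukin-17 axis genes 4 passed upward and 5 downward (median 0.25, or −0.06 with DAC replicate 2 as the only DAC library, where 2 passed upward). Il1b, the interleukin-1 of myeloid cells, had 186, 184, 222 and 289 CPM in the DAC, against 57.1, 54.1, 28.1 and 67.6 CPM in gingiva (log2 2.09 ± 0.40, SE; edgeR glmTreat, adjusted p = 0.00415). Il1a and Il18, forms stored in epithelium, were lower. Il18 had 6.800, 7.23, 6.16 and 9.17 CPM in the DAC, against 72.8, 70.9, 120.4 and 68.8 CPM in gingiva, with gingival replicate 3 the highest (log2 −3.50 ± 0.27, SE; edgeR glmTreat, adjusted p = 7.98e-09). Il1rn, the receptor antagonist, Il17rc, a receptor subunit, and Il22ra1, the epithelial receptor for interleukin-22, were lower by log2 differences of −1.68, −2.46 and −5.28. Il17a had 2.17, 0.911, 2.72 and 2.77 CPM in the DAC, against 0.624, 0.252, 0.390 and 1.09 CPM in gingiva; the tissues overlapped, and it missed the 2-fold test (log2 1.85 ± 0.58, SE; edgeR glmTreat, adjusted p = 0.0662), while Il17f passed, at 2.98 CPM in the DAC and 0.585 CPM in gingiva, and lost the call without any of 4 of the 8 libraries.

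Cytokines and chemokines leaned toward the DAC. Il6 had 5.47, 14.9, 10.6 and 7.59 CPM in the DAC, against 0.624, 2.85, 0.167 and 0.686 CPM in gingiva; the groups did not overlap, and gingival replicate 2 was the highest of its tissue (log2 3.13 ± 0.62, SE; edgeR glmTreat, adjusted p = 0.0011). Saa3, an acute phase protein of inflamed tissue, had 1525, 1100.0, 1243 and 2039 CPM in the DAC, against 152, 133, 8.03 and 63.9 CPM in gingiva, with gingival replicate 3 the lowest. Of 16 cytokine and enzyme genes 7 passed upward and 1 downward. That was Arg1, arginase, of macrophages and of squamous epithelium, with 75.4, 119.6, 221 and 180.2 CPM in the DAC, against 1730.0, 1485, 1712 and 1435 CPM in gingiva (log2 −3.42 ± 0.35, SE; edgeR glmTreat, adjusted p = 6.02e-07). Of 26 chemokine genes 10 passed upward and 1 downward (6 and 0 with DAC replicate 2 as the only DAC library). The monocyte attractants Ccl2 and Ccl9 were higher by 2.04 and 3.12 (log2). The neutrophil attractant Cxcl5 had 279, 213, 509 and 386 CPM in the DAC, against 435, 303, 146 and 374 CPM in gingiva; the libraries overlapped and no difference was detected (log2 0.14 ± 0.32, SE; edgeR adjusted p = 0.702). Cxcl1, Cxcl2 and Cxcl3, of the same family, did not pass either (log2 0.53, 0.13 and −0.49). Ccl21a, the lymphatic chemokine, was the one lower, and its call was lost without gingival replicate 2, DAC replicate 1 or DAC replicate 2.

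Receptors for sex steroids differed in opposite directions in these mice with intact ovaries. Of 10 steroid and related receptor genes 4 passed upward and 3 downward. Esr1, the estrogen receptor alpha gene (chr10:4611593-5005614), had 17.2, 15.7, 18.02 and 17.95 CPM in the DAC, against 2.16, 2.89, 2.90 and 4.00 CPM in gingiva. Pgr, the progesterone receptor gene (chr9:8899833-8968611), had 0.912, 0.972, 0.408 and 0.527 CPM in the DAC, against 23.4, 21.8, 17.8 and 35.8 CPM in gingiva. Neither overlapped; the log2 differences were 2.52 ± 0.19 and −5.14 ± 0.37 (SE; edgeR glmTreat, adjusted p = 3.37e-08 and 1.1e-09). The retinoid partner receptor Rxra was lower (log2 −1.61), and the membrane estrogen receptor Gper1 and the retinoic acid receptors Rara and Rarb were higher (log2 3.36, 1.45 and 1.87). Esr2 and Vdr are not analysed here.

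Few proliferation genes passed. Of 17 cell cycle genes 1, E2f1, passed upward (log2 1.38), and the median was 0.27. At an adjusted p under 0.05 (edgeR quasi-likelihood test) 8 differed upward and 1 downward, against 39.7% and 35.4% of all genes. Mki67, the marker of dividing cells, had 145, 126, 109 and 81.7 CPM in the DAC, against 209, 147, 139 and 91.5 CPM in gingiva, with overlap (log2 −0.35 ± 0.24, SE; edgeR adjusted p = 0.197). Gapdh, often used to scale such comparisons, had 588, 717, 597 and 725 CPM in the DAC, against 902, 864, 694 and 772 CPM in gingiva. The log2 difference of −0.30 ± 0.12 (SE) had an edgeR quasi-likelihood adjusted p under 0.05 but did not pass the 2-fold test. With scaling by library totals or by the upper quartile Gapdh was not called (edgeR quasi-likelihood adjusted p = 0.422 and 0.499). Of 10 such reference genes 2 passed each way: Gusb and B2m were higher in the DAC (log2 2.62 and 1.59), and Hprt and Pgk1 were lower (log2 −1.65 and −1.17). The call of Pgk1 was lost without any of 4 of the 8 libraries, and that of B2m with DAC replicate 2 as the only DAC library.

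The same contrast was then read in the libraries of the other mice. Of the 3286 genes higher in the DAC of sham mice, 2695 passed the 2-fold test the same way in OVX mice and 2685 in OVXE2 mice; of the 1873 lower genes it was 1503 and 1562. Over all genes the test called 31.6% in OVX and 31.6% in OVXE2. An opposite sign was found for 3 and 8 of the higher genes and for 8 and 2 of the lower genes in OVX and OVXE2, and all 24 genes named for the size of their difference passed in both. The sizes stood side by side as follows for 5 genes. Rag1 differed by 5.52 (log2) in sham, 7.26 in OVX and 2.98 in OVXE2 mice, Pgr by −5.14, −4.92 and −2.72, and Muc5b by −8.33, −4.24 and −6.83. The bone genes Mepe and Ibsp gave 9.39 and 6.65 in sham, 9.53 and 6.37 in OVX, and 8.49 and 6.54 in OVXE2 mice. The test of the change in the tissue difference between sham and OVX mice gave, in that order of genes, an edgeR adjusted p of 0.576, 0.889, 0.576, 0.937 and 0.835. Between sham and OVXE2 mice the edgeR adjusted p was 0.306, 0.0545, 0.745, 0.669 and 0.984.

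**Figure D5:**
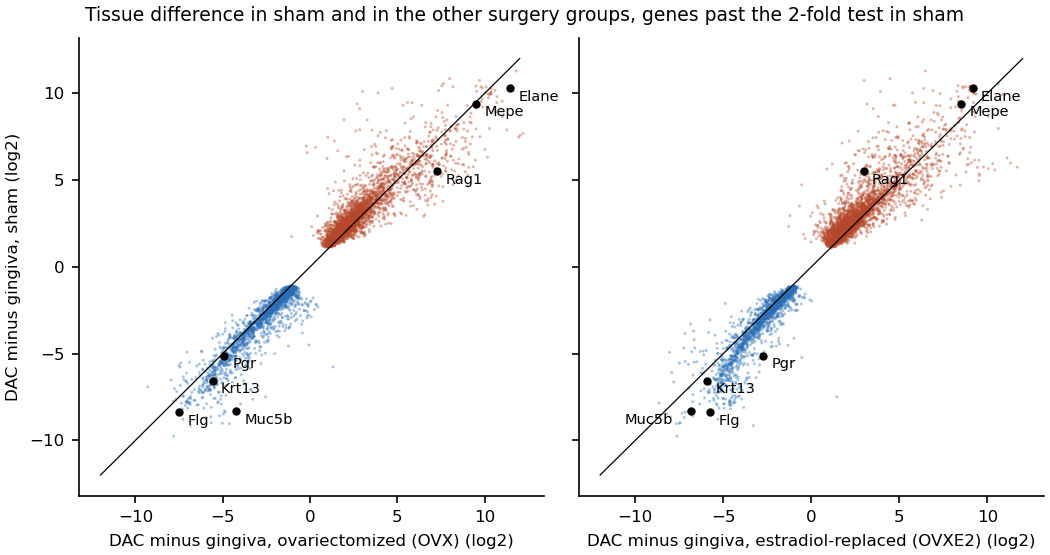
Log2 difference between the tissues in sham mice (vertical axis) against that in OVX mice (left panel) and in OVXE2 mice (right panel), for the 5159 genes past the 2-fold test in sham mice; the line marks equal values. Red points are higher and blue points lower in the DAC of sham mice, and nearly all keep their sign in both panels.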

How the data were processed

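Per the labels' protocols, poly(A) RNA of flash-frozen, pulverized tissue (RNA integrity number above 7.0) was made into paired-end libraries. The authors deposited 1 table of raw gene counts per library, with columns as STAR writes them. The tools fastp, STAR and DESeq2 and the build GRCm38 (mm10) are named per the submitters' processing notes; versions and annotation were not given in the sources used here. Opposite-strand counts were used, because that column held most reads (the other strand held 3.69 to 8.81% in the 8 libraries); lines of unassigned reads were dropped, reads mapped to several places were not counted, and fragments on no feature were left out of library totals. GENCODE M21 named 38186 of the 38321 listed genes and gave coordinates and exonic lengths.

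Counts of all 24 libraries were filtered (filterByExpr), scaled by TMM and fitted with edgeR 4.0.16 in R 4.3.3 (glmQLFit with robust estimation, 6 groups, 18 residual degrees of freedom). Tests were glmQLFTest and glmTreat against 2-fold, with Benjamini-Hochberg adjustment over 14209 genes. The pipeline was tested on simulated counts. CPM in the text are TMM-scaled; RPKM divide them by exonic length. Libraries of a tissue were not copies (chi-square per degree of freedom 19.4 to 77.0). Replicate numbers were not used to pair the tissues in the main fit. The labels do not say whether a DAC and a gingival library share a mouse, and the correlations given below do not settle it.

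The gene lists, the members and the rule for named genes (12 largest differences each way among non-overlapping, abundant, named genes; the 5 most abundant genes per tissue; and, of each list, leading, opposite and uncalled members) were chosen with earlier results of these data known. No test was run on a list. Floors and intervals for genes with 0 to 3 counts cover counting error only. Some results are not reported here.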

Additional observations from a re-analysis of the deposited data

Results flagged for a closer look

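Dixon's criterion was applied to 80 genes and to the summed shares of 7 gene lists, not to every gene described by library. It compares the highest and the lowest of the 4 libraries of a tissue with the nearest other library. It was met in 16 of 174 checks, where chance gives about 1 in 20. In the DAC, replicate 1 had 218 CPM of the cornifying-layer keratin Krt10, against 15.3 to 25.6 in the other 3. DAC replicate 2 had 66.4 CPM of the GABA enzyme gene Gad1, against 3.29 to 3.67, and 16.4 CPM of the enamel gene Ambn, against 12.5 to 12.6. DAC replicate 4 had 158 CPM of Mepe, against 211 to 222.

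Gingival replicate 3 stood apart in 5 genes. It had 0.669 CPM of Mpo, 0.334 CPM of Elane and 1.45 CPM of Jchain, all low levels of marrow and antibody genes, and 394 CPM of Grhl3 and 120 CPM of Il18, against 268 to 288 and 68.8 to 72.8 in the other gingival libraries. Gingival replicate 2 had 6.25 CPM of Omp, 1.72 CPM of Obp2b and 3.69 CPM of Cd4. Gingival replicate 4 had 0.485 CPM of Sost and 2.22 CPM of Mup4, and gingival replicate 1 had 1.497 CPM of Nkg7, the lowest of its tissue. The criterion was also met by Prg2 in gingival replicate 3, at 0.111 CPM, but each gingival library had 2 counts of it, and this value differs from the others only through the smaller total of that library.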

How the results depend on the processing

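Leaving out each of the 8 sham libraries in turn gave 10480 to 10547 genes by the edgeR quasi-likelihood test and 4950 to 5123 past the 2-fold test, and over all alternatives run (other scalings, low-count filters, DESeq2, limma-voom, sham libraries alone, replicate block) the counts were 8845 to 11318 and 3978 to 5437. Scaling by library totals or by the upper quartile moved the median log2 difference of all genes to 0.25 and 0.27, and 69.6 and 69.9% of the 2-fold calls were then higher in the DAC, against 63.7%. Of 402 genes past the 2-fold test in the lists or the text, 372 kept the call without each library. With the replicate number as a block 5039 genes passed the 2-fold test; same-number correlations of deviations were −0.105 to 0.271, and not every library correlated best with its own number. Chosen after the data were seen, leaving out DAC replicates 2 and 4, the richest in brain neuron genes, turned Gad2 to −0.0546 (log2), and leaving out the 3 richest in nasal gland genes, so that DAC replicate 2 stood alone and was taken to vary like the other groups, turned Cd3g to −2.39, Cxcl9 to −0.71, Klrk1 to −0.18, Itgax to −0.12 and Il17f to −0.96; the cause was not tested. With the block in the 8 sham libraries 10 of 14 muscle genes had an adjusted p under 0.05 (edgeR), against 1 without it; there Mki67 was called lower (log2 −0.30, adjusted p = 0.0151, edgeR; 0.0654 with the block in all 24 libraries and 0.197 without it), and Gapdh was not called (adjusted p = 0.0768). Depth limits genes with few counts, such as Hoxb2, Mmp20 and Amelx.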

Other observations

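The spread among libraries was larger in the DAC in 8343 genes, 58.7% of those tested. The 10 most abundant genes took 19.5 to 21.9% of counts in the DAC and 15.9 to 16.98% in gingiva.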
